A study of Mus musculus with 7 samples.

Results

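The comparison described here set the blood mononuclear cells of mice bled serially from the retro-orbital plexus, without ibuprofen, against those of the control group. It used 2 of the 7 libraries of the series, the library labelled RP Ibu (-) and the library labelled Non, both from week 8 of blood collection. The other libraries came from facial vein (FV) and tail vein (TV) collection, each without and with the anti-inflammatory drug ibuprofen, and from retro-orbital collection (RP) with ibuprofen. Each group had 1 library, so the pair has no replicate check, no p-value is given, and genes are described by the size of their difference. The labels call Non the control and give it no collection route. The strain, the sex, the age, the number of animals and any pooling behind a library are details not given in the sources used here. Of 45777 genes in the deposited table, 6051 had a mean of at least 10 CPM in the 2 libraries and were compared, where CPM is the count of a gene scaled to a common library size. The scaling was by TMM, a method that sets libraries to a common scale from the genes that differ least, and differences are log2 CPM (prior count 2) in RP minus Non.

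Mononuclear cells are separated from blood as the fraction with round nuclei: T cells, B cells, natural killer cells, monocytes and a few dendritic cells. Granulocytes, platelets and red cells are depleted to a varying extent. Mouse monocytes fall into classical cells, which carry Ly6C and leave the blood for inflamed tissue, and nonclassical cells, which patrol the vessel wall and need the nuclear receptor Nr4a1 to develop. In whole fractions such as these, fewer cells of a type and less RNA per cell cannot be told apart.

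The RP library lay close to Non. At least 2-fold differences were found in 25 of the 6051 genes (0.413%), of which 13 were higher in RP (0.215%) and 12 were lower (0.198%). The middle 90% of genes lay between -0.31 and 0.39 on the log2 scale, with a median of 0.04. At the lower limit of 1.5-fold, 127 genes (2.1%) differed, 77 of them higher (1.27%) and 50 lower (0.826%). Genes characteristic of nonclassical monocytes, platelets and B cells stood higher in RP, and genes of T cells, red cells and the ribosome stood lower, each by a modest amount. Among the named genes, the largest differences were in the adhesion gene Cd99l2 and the protease gene Adamdec1, which were higher, and in the theta-globin gene Hbq1a and the ribosomal gene Rpl29, which were lower.

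Over the same 6051 genes, FV without ibuprofen differed from Non by at least 2-fold in 398 genes (6.58%), TV without ibuprofen in 575 (9.5%) and RP with ibuprofen in 20 (0.331%). These comparisons share the Non library, and their gene set was chosen on the levels in RP without ibuprofen and Non. The middle 90% of genes spanned -0.74 to 0.97 in FV and -0.72 to 1.20 in TV. The spread in RP was therefore the narrowest of the 3 collection routes without ibuprofen.

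Library totals ran from 47903611 to 63801032 counts, with 49886269 in Non and 63801032 in RP. A level of 10 CPM stood for 560 counts in Non and 784 in RP, and the floor of 3 counts for 0.0536 and 0.0383 CPM. Counting intervals below are 95% intervals and cover counting error only, not the variation between animals or preparations. Mononuclear cell markers were present: 28 of 28 B cell markers and 27 of 30 T cell markers passed 10 CPM. Red cell RNA was present as well, since the adult globin genes took 58.4% of counts in Non (Wilson 95% interval 58.42 to 58.45) and 54.0% in RP (53.98 to 54.00). The 2 libraries differed by more than sampling noise, with a chi-square of 36.1 per degree of freedom, against 28.4 for the closest pair of libraries, which was Non and RP with ibuprofen.

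**Figure D1:**
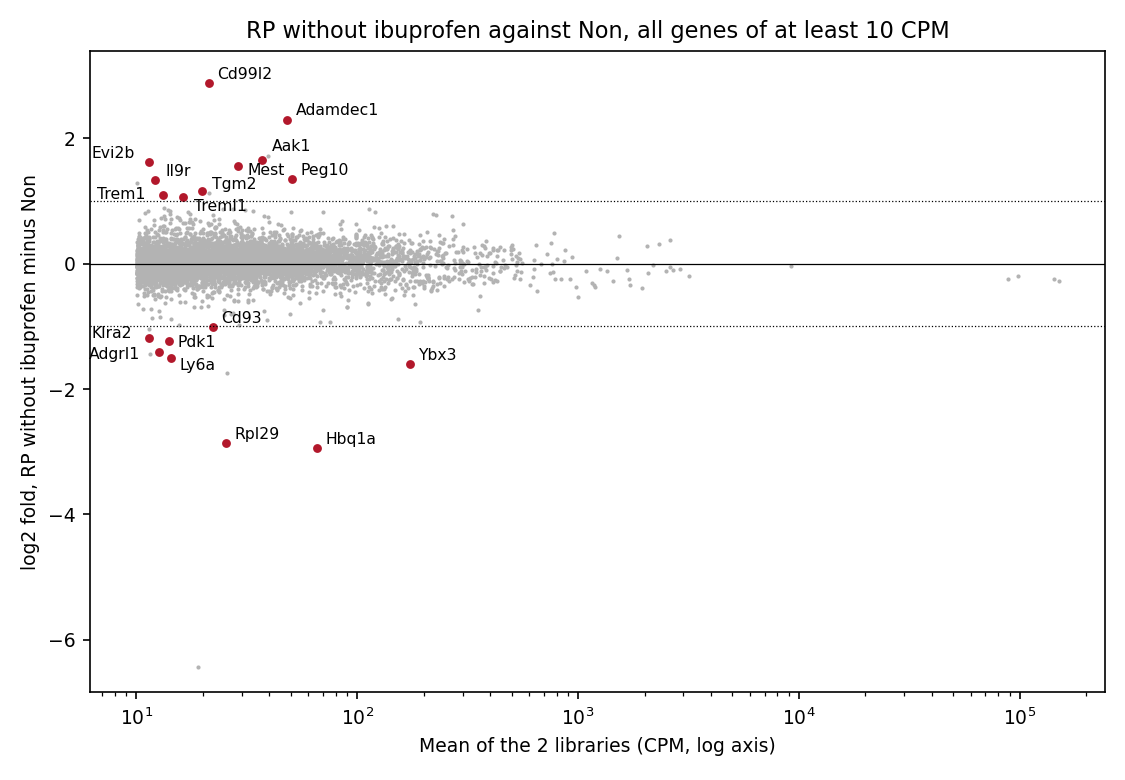
Difference between RP without ibuprofen and Non (log2, vertical axis) against the mean level of the 2 libraries (CPM, log axis) for the 6051 genes compared, with dotted lines at 2-fold and 1 point per gene. The labelled red points are the 18 named genes past 2-fold, and most of them lie at low levels, with Ybx3 as the exception above 100 CPM.

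Of the 25 genes past 2-fold, 18 are named genes and 7 are predicted genes or pseudogenes. The named genes comprise 10 that were higher and 8 that were lower in RP. The predicted genes and pseudogenes comprise 3 that were higher, by 1.12 to 1.72 on the log2 scale, and 4 that were lower, by -1.04 to -6.44. The lowest of these, Gm38495, had 2101 counts in Non and 31 in RP. The 25 genes were of low to moderate level, with mean CPM from 10.1 to 173 and a median of 19.7, against 25.9 over all genes compared. For 21 of them the counting interval of the difference lay wholly past 2-fold.

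Where RP and Non each stood among all 7 libraries says which library was unusual. RP was the highest of the 7 for 7 of the 25 genes and the lowest for 8, so 15 had RP at an end. Over all genes compared, RP was at an end for 30.5% (highest 21.4%, lowest 9.06%). Non was at an end for 7 of the 25 genes, against 10.1% of all genes. For Cd99l2, Aak1, Tgm2 and Rpl29, RP and Non were at the opposite ends of the 7. For 7 genes neither was at an end. The difference that chose the genes also pushes them toward the ends, so these counts are a description. RP with ibuprofen, compared with the same Non library, had the same sign for 12 of the 25 genes and passed 2-fold in that direction for 4. Over all genes compared, it passed 2-fold in either direction for 0.331%. The share with the same sign over all genes was not computed, so no likeness or contrast is read from these counts.

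Cd99l2, a CD99-related membrane protein that leukocytes and endothelium use as leukocytes cross the vessel wall, had the largest positive difference among the named genes (chrX:71420060-71492866, build mm10). It stood at 37.5 CPM in RP and 5.04 in Non, from 2938 and 282 counts. In the other libraries it stood at 5.71 CPM in RP with ibuprofen, 7.27 in FV, 8.4 in FV with ibuprofen, 13.5 in TV and 6.2 in TV with ibuprofen. The RP library was thus the highest of the 7 and Non the lowest, and the difference was 2.89 (counting interval 2.72 to 3.08).

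Adamdec1, a secreted metalloprotease of the ADAM family known from intestinal macrophages and fibroblasts, stood at 80.3 CPM in RP and 16.3 in Non (chr14:68563387-68582072). The other libraries held 5.44 CPM in RP with ibuprofen, 8.72 in FV, 7.7 in FV with ibuprofen, 1.92 in TV and 2.66 in TV with ibuprofen. Every collected library other than RP without ibuprofen was thus below Non. The difference was 2.30 (2.20 to 2.41) in RP, -0.90 in FV and -3.06 in TV. Of the 20 macrophage markers, 4 passed 10 CPM, and apart from Adamdec1 they lay between -0.16 and 0.24.

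Genes for receptors and signalling proteins were also among those higher in RP. Il9r, the receptor for interleukin 9, stood at 17.4 CPM in RP and 6.9 in Non, and at 2.11 to 9.27 in the other libraries, a difference of 1.33 (1.17 to 1.503). Aak1, a kinase that phosphorylates the AP-2 adaptor in clathrin-mediated endocytosis, stood at 56.1 CPM in RP and 17.7 in Non. Non was here the library that stood apart, since the other 5 held 31.9 to 53.3 CPM, and the difference of 1.66 for RP had counterparts of 1.59 in RP with ibuprofen, 0.85 in FV and 1.06 in TV. Compared as log2 (TPM + 1), Il9r (0.90) and Aak1 (0.78) were under 2-fold, but the added 1 shrinks differences at low TPM. The deposited TPM values themselves were more than 2-fold apart. They were 2.64 in RP and 0.948 in Non for Il9r, and 3.18 and 1.44 for Aak1. Tgm2, a transglutaminase that cross-links proteins, stood at 27.3 CPM in RP and 12.2 in Non, with 13.1 to 17.6 in the other libraries, a difference of 1.16 (1.04 to 1.29).

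The receptor Trem1, which amplifies inflammatory signalling in neutrophils and monocytes, stood at 18.1 CPM in RP and 8.4 in Non. All 6 collected libraries were above Non for Trem1, from 9.61 CPM in TV with ibuprofen to 30.6 in FV. Treml1, a receptor of platelet alpha granules, stood at 22.1 CPM in RP and 10.5 in Non. It was higher in FV (30.8 CPM) and TV (53.2 CPM) than in RP. Both lay just inside the 2-fold limit, at 1.10 and 1.07, while Cd300ld at 0.88 and Ceacam2 at 0.87 lay just outside.

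A pair of imprinted genes, expressed from the paternal copy, were higher in RP. Mest, a hydrolase-like protein, stood at 42.8 CPM in RP and 14.5 in Non, and Peg10, a gene derived from a retrotransposon, at 72.5 and 28.5. RP was within the range of the collected libraries for both: Mest ran from 7.87 CPM in RP with ibuprofen to 79.3 in FV with ibuprofen, and Peg10 from 16.8 to 134 CPM. The differences in RP were 1.56 and 1.35, against 1.44 and 0.82 in FV and 2.27 and 2.24 in TV.

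Some of these values may depend on how reads were shared between genes. The libraries were stranded per the labels' protocols, but the use of strand in counting is not given in the sources used here. Whether the counts kept apart the reads of overlapping genes on opposite strands is therefore not known. Evi2b, a membrane protein of myeloid cells, stood at 17.3 CPM in RP and 5.59 in Non (1.62) and as low as 0.268 in FV. Its span on chromosome 11 lies within those of Evi2 and Nf1, and Evi2 stood at 62.4 CPM in RP and 67.6 in Non. With the counts of Evi2 and Nf1 added, the difference for Evi2b was 0.16 (89.7 against 80.5 CPM). Mest overlaps Copg2, and their sum differed by 0.93.

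Among the lower genes, Hbq1a, a theta-globin gene of the alpha-globin cluster, stood at 15.0 CPM in RP and 116 in Non, a difference of -2.95 (-3.04 to -2.86). It was 7.18 CPM in FV and 78.2 to 168 in the other collected libraries. Its copy Hbq1b, in the same cluster, stood at 127 CPM in RP and 170 in Non (-0.42). Reads can be split between such near-identical copies, and the sum of Hbq1a and Hbq1b was 142 CPM in RP and 286 in Non, a difference of -1.01. Rpl29, a protein of the large ribosomal subunit, stood at 6.11 CPM in RP and 44.9 in Non (-2.87, counting interval -3.02 to -2.73). Non was the highest and RP the lowest of the 7 libraries for Rpl29, and TV with ibuprofen was also low at 7.72 CPM. Rpl29 has pseudogenes, so its count is uncertain in the same way.

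Ybx3, a cold-shock-domain protein that binds RNA and DNA, was the only gene of at least 100 CPM to pass 2-fold, 1 of 615 (0.163%). It stood at 85.6 CPM in RP and 261 in Non, a difference of -1.61 (-1.65 to -1.57). The other libraries held 441 CPM in RP with ibuprofen, 177 in FV, 242 in FV with ibuprofen, 753 in TV and 413 in TV with ibuprofen. RP was therefore the lowest of the 7, while Non lay within the others.

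The remaining 5 lower genes were of modest level, and RP was the lowest of the 7 libraries for each. Ly6a, which encodes the stem and T cell antigen Sca-1, stood at 7.47 CPM in RP and 21.2 in Non (-1.501). Adgrl1, a latrophilin of the adhesion receptor class, stood at 6.9 and 18.5 CPM (-1.42). Pdk1, a kinase that restrains pyruvate entry into the citric acid cycle, stood at 8.39 and 19.8 CPM (-1.24), with 15.9 to 32.2 CPM in the other libraries. Klra2, a lectin-like receptor of the Ly49 family, stood at 6.95 and 15.9 CPM (-1.19), and Cd93, a receptor of myeloid and endothelial cells, at 14.8 and 29.8 CPM (-1.01, counting interval -1.12 to -0.90). For Klra2 and Cd93 the other routes lay on the opposite side of Non: Klra2 differed by 0.92 in FV and 1.43 in TV, and Cd93 by 2.56 and 2.04. Compared as log2 (TPM + 1), 4 of the 5 were under 2-fold, namely Adgrl1 (-0.73), Pdk1 (-0.74), Klra2 (-0.72) and Cd93 (-0.61). The added 1 shrinks differences at low TPM. The TPM scale also stood higher in RP, with a median over all genes of 0.19, against 0.04 on CPM. Both move the values of lower genes toward 0. These values therefore do not show whether the TPM values were less than 2-fold apart. Cd93 was at -0.88 with library totals. Klra2 and Cd93 lay just inside the limit, and Snrnp25 at -0.97 just outside.

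**Figure D2:**
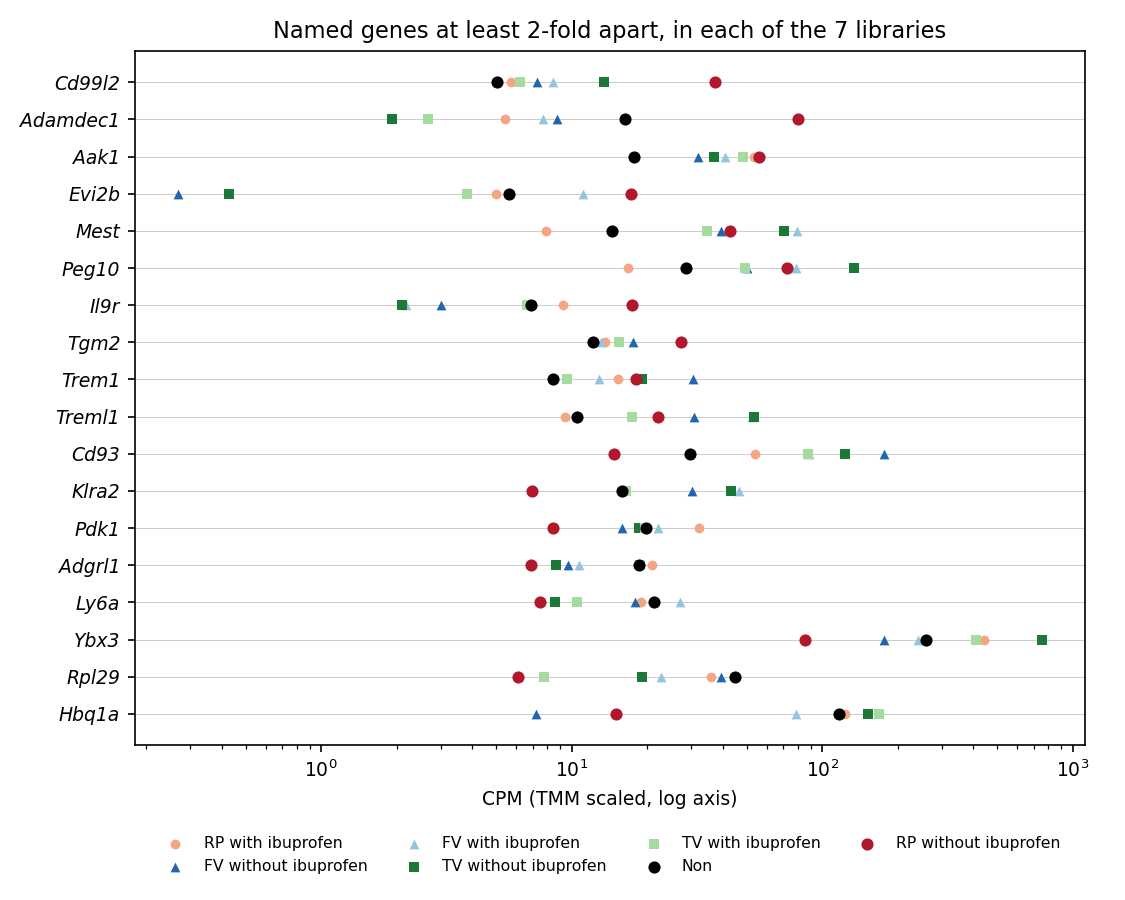
Level of each of the 18 named genes past 2-fold in all 7 libraries (CPM, log axis), ordered by the difference between RP without ibuprofen (red) and Non (black), 1 point per library. Cd99l2 has RP at 37.5 CPM and all others at or below 13.5, and Hbq1a has RP and FV alone below 20 CPM.

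At higher levels, 15 of the 615 genes of at least 100 CPM were 1.5-fold or more apart (2.44%), Ybx3 and 1 pseudogene included. Of those that were higher, Nr4a1, Egr1 and Sik1 are genes that signals induce within minutes, encoding a nuclear receptor, a zinc-finger transcription factor and a salt-inducible kinase. Nr4a1 stood at 281 CPM in RP and 162 in Non, and at 122 to 245 in the other libraries. Sik1 stood at 153 CPM in RP and 87.0 in Non, and at 55.5 to 110 in the others. RP was the highest of the 7 libraries for both. Egr1 stood at 147 CPM in RP and 80.3 in Non, and was higher still in FV (175 CPM) and TV (171 CPM).

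Ace, the angiotensin-converting enzyme, and Itga4, the alpha 4 integrin chain that binds VCAM-1, were also highest in RP among the 7 libraries. Ace stood at 287 CPM in RP and 167 in Non, with 146 to 176 in the others. Itga4 stood at 338 CPM in RP and 199 in Non, with 195 to 272 in the others. Ikzf3, a lymphocyte transcription factor called Aiolos, stood at 176 CPM in RP and 115 in Non, with 52.2 to 112 in the others. The genes that were lower at this level were Igha (133 against 254 CPM), Cwc22 (108 against 198), Slc4a1 (263 against 440), Sptb (86.9 against 136) and Atp11b (88.2 against 136). Igha encodes the constant region of immunoglobulin A, and Slc4a1 and Sptb encode the anion exchanger and the beta spectrin of the red cell membrane. Cwc22 has near-identical copies and its count is uncertain.

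Between 2 and 10 CPM, 70 of 4329 genes (1.62%) passed 2-fold, 27 higher (0.624%) and 43 lower (0.993%). Siglech, a lectin of plasmacytoid dendritic cells, stood at 9.77 CPM in RP and 3.06 in Non (1.67, counting interval 1.44 to 1.92), within the range of 1.65 to 16.6 in the other libraries. Lpl, lipoprotein lipase, stood at 10.6 CPM in RP and 3.09 in Non (1.77), and Plpp3, a lipid phosphatase, at 4.20 and 1.11 (1.89). Lpl and Plpp3 were highest in RP among the 7 libraries. The lower genes with the largest differences were Cacna1e, a calcium channel subunit (0.32 against 4.09 CPM), St6galnac2, a sialyltransferase (2.33 against 8.54), and Dapl1 (1.88 against 6.84). For these genes Non was the highest of the 7 libraries.

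Cell type markers were examined next, each list being read against the shares over all genes compared. Of all 6051 genes, 58.7% were above 0 and 41.3% below, so a list with most members above 0 needs that background beside it. At least 1.5-fold higher were 1.27%, and 0.826% were at least 1.5-fold lower. RP was the highest of the 7 libraries for 21.4% and the lowest for 9.06%. These shares are the background of every list below. The lists were chosen with earlier results of these data known and give no independent support to a direction.

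Nonclassical monocyte genes stood higher in RP as a group. Of its 20 genes, 16 passed 10 CPM, and all 16 were above 0, with a median of 0.55 and a range from 0.17 to 0.80. At least 1.5-fold higher values were found for 6 (background 1.27%), and RP was the highest of the 7 libraries for 12 (background 21.4%). The median over the 20 genes with no filter was 0.47. The 4 that did not pass were Fabp4 (3.21 CPM in RP, 2.34 in Non), Pparg (6.45, 5.58), Bcl2a1b (6.79, 5.77) and Apoc2 (5.17, 5.66).

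Beside Nr4a1 and Ace, the members past 1.5-fold were receptors of the cell surface and a secreted ribonuclease. Itgax, the CD11c integrin chain, stood at 47.4 CPM in RP and 27.9 in Non, with 22.1 to 28.1 in the other libraries. Cd300e, an activating receptor, stood at 21.4 CPM in RP and 13.5 in Non, with 8.51 to 12.96 in the others. Treml4, which marks nonclassical monocytes, stood at 54.7 CPM in RP and 35.5 in Non, with 36.9 to 45.2 in the others. RP was the highest for all 3 genes, by a margin over every other library. Ear2, a ribonuclease with close relatives that can share its reads, stood at 34.2 CPM in RP and 21.7 in Non, and FV was higher at 37.5.

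Itgal and Spn, the integrin chain and the sialophorin that complete the most abundant members, differed less: Itgal stood at 405 CPM in RP and 327 in Non (0.31), and Spn at 183 and 163 (0.17). Cx3cr1, the fractalkine receptor that defines the subset and whose values were seen before it was picked out here, stood at 61.2 CPM in RP and 41.4 in Non, and was higher in FV with ibuprofen at 80.4. The list's summed level was 1755 CPM in RP and 1245 in Non, and 1237 to 1309 in RP with ibuprofen, FV and TV. Its median against Non was -0.17 in FV, 0.04 in TV, 0.04 in RP with ibuprofen, 0.16 in FV with ibuprofen and -0.09 in TV with ibuprofen.

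The classical monocyte list had a median of -0.12 in RP, with 9 of its 21 passing members above 0 and 12 below. It was 1.41 in FV and 0.99 in TV, against the same Non library. Vcan, the proteoglycan versican, stood at 19.5 CPM in RP and 34.1 in Non, while FV held 401 and TV 138. The most abundant members lay on both sides of Non: Lyz2, lysozyme, at 1297 CPM in RP and 1409 in Non, Fn1, fibronectin, at 334 and 413, Gda, guanine deaminase, at 372 and 454, and Ahnak, a large scaffold protein, at 538 and 460. The sign of the list's median was not stable: it was 0.014 with library totals in place of TMM and 0.091 on the deposited TPM scale.

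**Figure D3:**
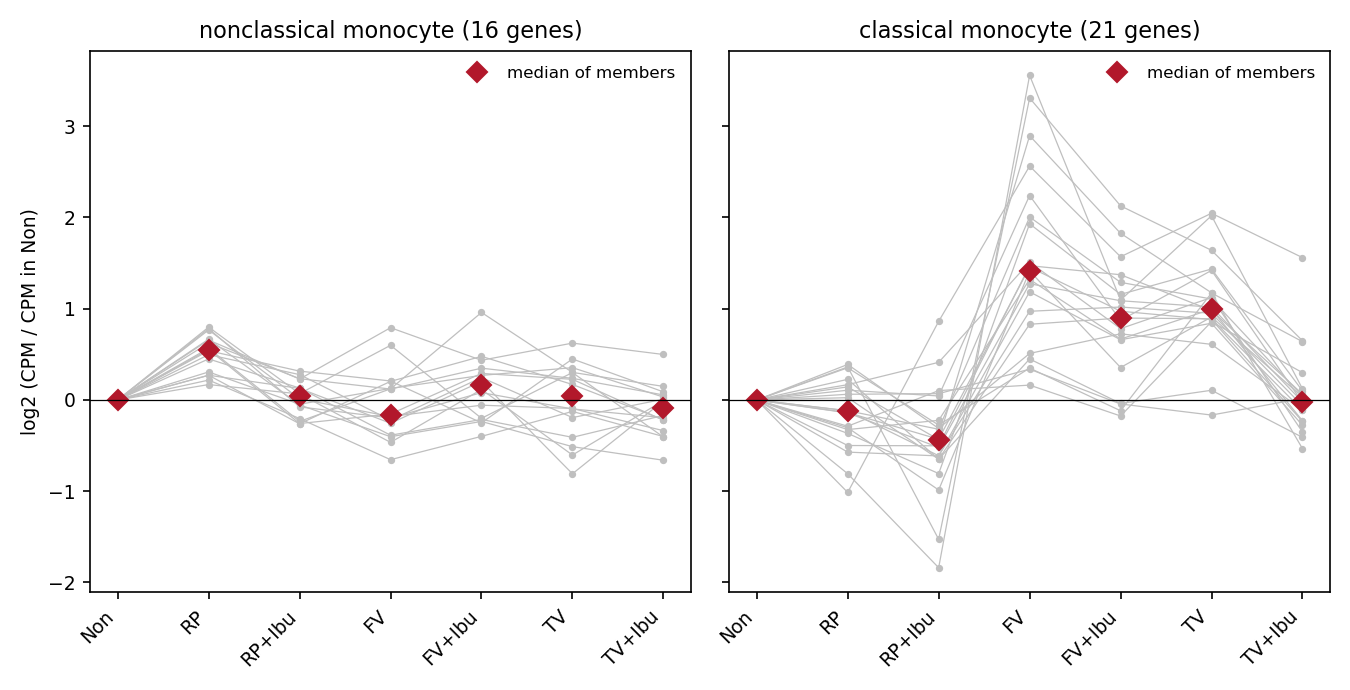
Level of each passing member of the nonclassical (16 genes) and classical (21 genes) monocyte lists relative to Non (log2 ratio, vertical axis) in the 7 libraries, with thin lines joining the values of 1 gene and diamonds for the median of the members. In RP without ibuprofen every nonclassical member lies above 0, while the classical members lie on both sides of 0 and are highest in FV.

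Of the platelet list, 26 of 30 genes passed and 25 of them were above 0 (background 58.7%), with a median of 0.37. The difference passed 1.5-fold for 4 (background 1.27%). Past 1.5-fold were Ppbp, the precursor of a platelet chemokine (368 CPM in RP, 236 in Non), Thbs1, thrombospondin (163, 107), Mmrn1, multimerin (43.2, 24.0), and Treml1. RP was the highest of the 7 libraries for 0 of the 26 (background 21.4%). The median was 1.19 in FV, 2.05 in TV and -0.34 in RP with ibuprofen, so RP without ibuprofen lay between Non and the other routes. F13a1, which the classical monocyte list also holds, was the member below 0, at 157 CPM in RP and 202 in Non, and was picked out after its value was seen.

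Neutrophil markers passed in 11 of 30 cases, with 7 above 0, 4 below and a median of 0.13. Mmp9, gelatinase B, stood at 24.0 CPM in RP and 14.9 in Non, and S100a9, a calprotectin subunit, at 55.4 and 37.9. The list's medians were 1.59 in FV and 1.17 in TV.

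All 28 B cell markers passed, 25 of them above 0 (background 58.7%), with a median of 0.25 and RP the highest of the 7 libraries for 15 (background 21.4%). Past 1.5-fold were Ebf1, a transcription factor that specifies the lineage (28.8 CPM in RP, 18.6 in Non), and Ly6d, a surface antigen of B lineage cells (39.99, 22.1). Of the most abundant members, Ighm, the immunoglobulin M constant region, stood at 571 CPM in RP and 506 in Non, and Cd79a, the signalling chain of the antigen receptor, at 171 and 149. Cd24a, an antigen that red cells also carry, was level at 678 and 681 CPM. The medians against Non were -1.29 in FV, -0.63 in TV and 0.21 in RP with ibuprofen. MHC class II and its loading machinery lay slightly above Non in RP, with 13 of 13 passing genes above 0 and a median of 0.11, for example Cd74, the invariant chain, at 970 CPM and 901. Of 7 plasma cell genes that passed, 5 were below 0 (median -0.07, but 0.065 with library totals and 0.11 on TPM), with Igha at -0.93 and Jchain, which joins immunoglobulin chains, at -0.80 (36.03 against 62.9 CPM).

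T cell markers stood lower. Of 30, 27 passed, 25 of these were below 0 (background 41.3%) and the median was -0.34, with 1 past 1.5-fold. That was Thy1, a surface glycoprotein, at 43.2 CPM in RP and 66.4 in Non (-0.62). Of the most abundant members, Tcf7, a transcription factor of naive T cells, stood at 158 CPM in RP and 204 in Non, Lck, the kinase bound to CD4 and CD8, at 87.9 and 111, and Ccr7, the lymph node homing receptor, at 106 and 122. The 2 members above 0, Cd8a (33.99 against 28.4 CPM) and Cd8b1 (29.5 against 24.9), encode the CD8 coreceptor chains, and Cd4 stood at 54.3 against 75.3; these 3 genes were picked out after their values were seen. The T cell median was -0.82 in FV, -1.10 in TV and 0.18 in RP with ibuprofen.

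Markers of natural killer and cytotoxic cells had a median of -0.11, with 11 of 14 passing members below 0. Gzma, granzyme A, stood at 27.0 CPM in RP and 40.3 in Non, and Cd244a, a receptor of the SLAM family, at 34.7 and 22.3. Of the dendritic cell list, 6 of 7 passing genes were above 0 (median 0.30), and of the plasmacytoid list 6 of 6 (median 0.43). Those lists share Itgax and Ly6d with the nonclassical monocyte and B cell lists. The sign of the natural killer median depended on the scaling, being 0.020 with library totals.

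Red cell genes stood lower in RP. Of 36, 28 passed and 25 were below 0 (background 41.3%), with a median of -0.24. At least 1.5-fold lower were 3 (background 0.826%): Slc4a1, Sptb and Xpo7, an exportin of late erythroid cells (68.3 CPM in RP, 111 in Non). The globin genes Hbb-bs, Hba-a1, Hba-a2 and Hbb-bt lay between -0.28 and -0.19. The erythroid median was -0.45 in FV and 1.19 in TV. The share of counts in red cell RNA thus differed between these libraries. With 1 library per group, collection group and preparation cannot be told apart, and the part of red cell RNA in the other differences was not tested. With the erythroid genes left out before scaling, the medians were 0.49 for nonclassical monocytes, 0.35 for platelets, 0.24 for B cells and -0.34 for T cells.

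Markers of the tissue at the collection site were mostly at or near 0. None of the 20 skin and hair genes passed, 12 of them had no count in RP and 13 none in Non, and their summed level was 8.35 CPM in RP and 6.93 in Non. The most abundant of them in RP, Sbsn, stood at 3.94 CPM in RP and 1.70 in Non, from 309 and 95 counts. Its difference was 1.20 (counting interval 0.88 to 1.56), and RP was the highest of the 7 libraries for it. Of 24 genes of the orbital glands and eye, 3 passed, and 13 had no count in RP and 12 none in Non. The 3 were Scd1, a fatty acid desaturase (150 CPM in RP, 106 in Non), Soat1, which esterifies cholesterol (44.4, 41.8), and Slc12a2, an ion cotransporter that the nonclassical monocyte list also holds (22.9, 19.0). All 3 were above 10 CPM in Non as well. RP was the highest of the 7 libraries for 2 of them, Scd1 and Slc12a2 (background 21.4%). Scd1 stood at 129 CPM in RP with ibuprofen and at 37.5 to 109 in FV and TV. For skeletal muscle Eno3 passed, also a nonclassical monocyte gene, and for endothelium and stroma Pecam1, which leukocytes and platelets also carry.

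**Figure D4:**
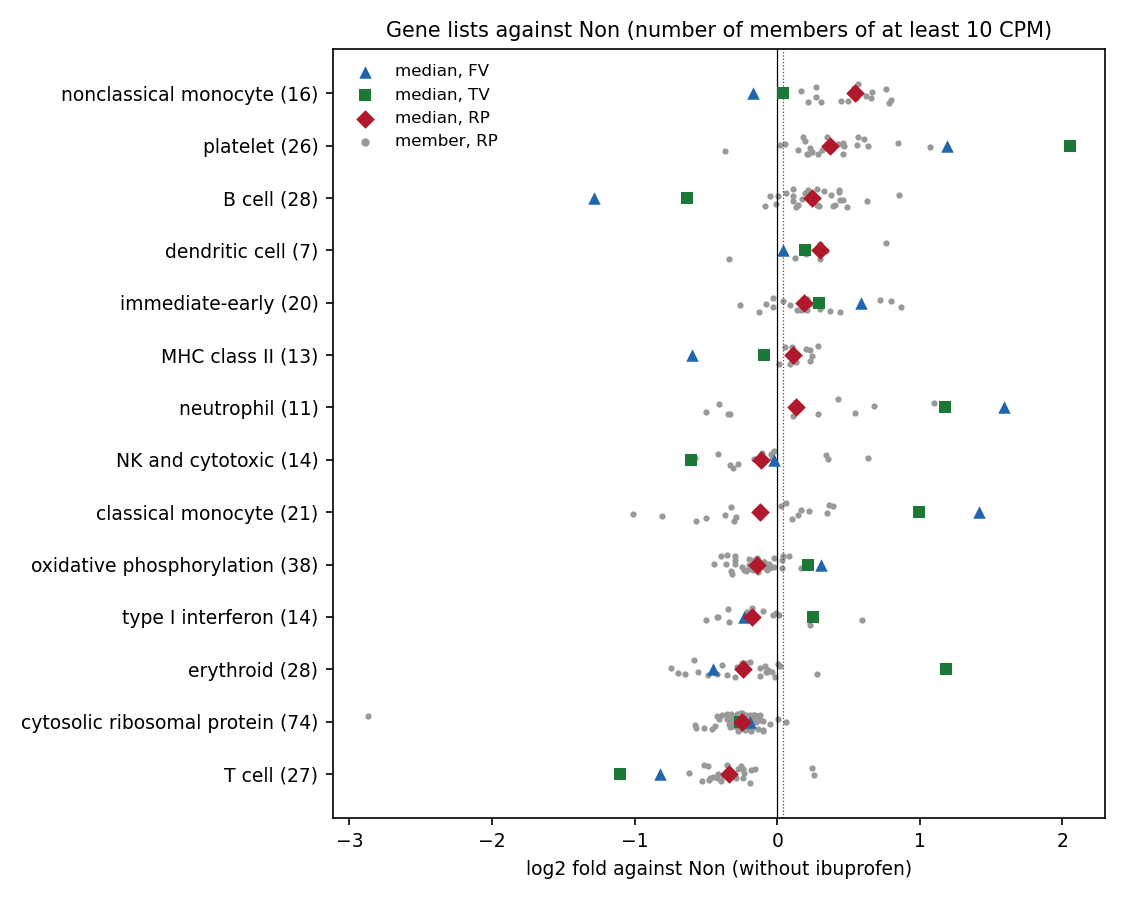
Differences from Non (log2, horizontal axis) for 14 gene lists, with the number of members of at least 10 CPM in brackets: grey points are members in RP without ibuprofen, red diamonds their median, and triangles and squares the medians in FV and TV without ibuprofen. The red dotted line marks the median of all genes in RP, 0.04; of the lists drawn, the nonclassical monocyte list lies farthest above it, at 0.55, and the T cell list farthest below, at -0.34.

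Genes of the early response to signals were mostly slightly higher in RP. Of 28 immediate-early genes, 20 passed, 15 above 0 (background 58.7%), with a median of 0.19. At least 1.5-fold higher were 3 (background 1.27%): Egr1, Nr4a1 and Atf3, a stress-induced transcription factor (21.8 CPM in RP, 13.2 in Non). Fos, the AP-1 subunit, stood at 442 CPM in RP and 382 in Non, Zfp36, which destabilises cytokine mRNA, at 463 and 400, and Dusp1, a phosphatase of MAP kinases, at 318 and 235. Nr4a1 is also on the nonclassical monocyte list. The list's medians were 0.59 in FV and 0.29 in TV.

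Nr4a1 and Atf3 are shown with the 250 bases before an annotated start, since both encode transcription factors of this list past 1.5-fold. The Nr4a1 window lies inside the gene's annotated span (chr15:101253902-101274795), so the start used for it is an internal one. The sequence of Egr1, the other such gene, is not used here. Capitals mark TGACG, the core of the cAMP response element, searched on both strands and read here as CGTCA. The sequences are from RefSeq on GRCm38.p6, 5′ to 3′ on the gene's strand: chr15:101266596-101266845 on the plus strand for Nr4a1 and chr1:191183334-191183583 on the minus strand for Atf3.
Nr4a1: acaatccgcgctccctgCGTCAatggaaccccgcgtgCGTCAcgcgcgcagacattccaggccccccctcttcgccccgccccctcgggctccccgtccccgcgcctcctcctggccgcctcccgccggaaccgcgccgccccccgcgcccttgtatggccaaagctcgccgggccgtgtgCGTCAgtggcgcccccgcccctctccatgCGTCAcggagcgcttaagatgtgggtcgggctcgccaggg
Atf3: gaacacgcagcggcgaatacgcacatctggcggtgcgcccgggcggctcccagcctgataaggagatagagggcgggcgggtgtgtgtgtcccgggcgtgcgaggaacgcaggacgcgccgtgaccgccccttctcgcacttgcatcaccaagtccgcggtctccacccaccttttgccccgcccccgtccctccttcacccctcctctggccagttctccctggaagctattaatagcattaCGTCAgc
The Nr4a1 window held 4 matches and the Atf3 window 1. Of 32851 RefSeq windows of the same length, 17.77% held at least 1 match and 0.137% held 4 or more. The windows of Nr4a2 and Nr4a3 also held 4 matches, and these genes were at 0.69 and 1.54 CPM in RP, against 0.80 and 1.64 in Non. Other windows of the immediate-early list held matches too, such as Dusp1 with 3 and Fos with 2, while Jun and Zfp36 held 0. Matches were thus not particular to the genes past 1.5-fold. A match is a description of letters, not a site of binding.

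Inflammatory cytokine and NF-kB target genes passed in 18 of 30 cases, 13 above 0, with a median of 0.11. Il1b, interleukin 1 beta, stood at 63.8 CPM in RP and 36.04 in Non (0.82, counting interval 0.75 to 0.90), within the range of 29.3 to 72.5 in the other libraries. Tnfaip3, the enzyme A20 that restrains NF-kB, stood at 105 CPM in RP and 65.6 in Non, the highest of the 7. Of the acute phase genes 7 of 20 passed, with a median of 0.06 (-0.030 with transcript length removed). Saa3, a serum amyloid gene, was at 0.68 CPM in RP and 0.70 in Non, while FV held 256 CPM and TV 17.4.

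Ibuprofen inhibits the cyclooxygenases, which make prostaglandin precursors, so the prostaglandin and leukotriene genes were described in this drug-free pair. Of 30, 7 passed, 6 above 0, with a median of 0.09 (-0.014 over the list with no filter) and none past 1.5-fold. Ptgs1, the constitutive cyclooxygenase, stood at 21.8 CPM in RP and 17.6 in Non (0.31, counting interval 0.20 to 0.43). Ptgs2, the inducible form, lay below the 10 CPM limit at 4.38 and 1.63 CPM (1.41, counting interval 1.09 to 1.78). RP with ibuprofen was similar in level for Ptgs2, at 4.75 CPM, and the other libraries held 1.17 to 4.00.

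Type I interferon response genes lay slightly below Non, 11 of 14 passing members, with a median of -0.18, although Ifit2 was higher (15.9 against 10.5 CPM). Of 12 passing glucocorticoid-responsive genes 9 were above 0 (median 0.30), with Cdkn1a, a cell cycle inhibitor, past 1.5-fold (21.9 against 13.7 CPM). Of 8 passing clock genes 7 were above 0 (median 0.23, but 0.086 over the 16 of at least 1 CPM, 0.11 over all 22 and 0.12 with erythroid genes left out), with Bhlhe40, a repressor of the clock, past it (22.3 against 12.8 CPM); the hour of collection is not given in the sources used here. Bhlhe40 was highest in RP and lowest in Non among the 7 libraries. Cell cycle genes passed in 9 of 30 cases (median -0.05, but 0.050 with library totals), and the median was -0.21 over the 23 genes of at least 1 CPM and -0.27 over all 30. Mki67, a marker of dividing cells, stood at 51.7 CPM in RP and 98.1 in Non.

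Most ribosomal protein genes stood lower in RP by small amounts. All 74 cytosolic ribosomal protein genes passed, 72 were below 0, the median was -0.25, and RP was the lowest of the 7 libraries for 32 (background 9.06%). Apart from Rpl29, the members lay between -0.58, for Rps21 (73.0 against 109 CPM), and 0.06, for Rpl35a (117 against 113), and those end members were picked out after their values were seen. The medians were -0.19 in FV, -0.26 in TV and 0.07 in RP with ibuprofen. Of 38 passing genes of oxidative phosphorylation, 33 were below 0, with a median of -0.14 and RP the lowest for 24; FV and TV had medians of 0.31 and 0.22. The sign of this median was not stable: it was 0.044 on TPM, where the median of all genes was 0.19, and -0.0088 with library totals. The most abundant member, Atp5b, a subunit of ATP synthase, stood at 288 CPM in RP and 297 in Non. Of the 13 genes that mitochondria themselves encode, 10 were above 0, with a median of 0.11.

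Transcript length moved with the differences. Over 5 groups of equal size, made by the longest annotated transcript, the median difference in RP ran from -0.08 for the shortest (171 to 2242 nt) through -0.00, 0.04 and 0.08 to 0.15 for the longest (5811 to 123179 nt). The medians ran the other way in FV, from 0.12 to -0.14, and in TV, from 0.17 to -0.17, and less so in RP with ibuprofen, from 0.02 to -0.05. The ribosomal and oxidative phosphorylation genes are short, with median lengths of 1077 and 1428 nt, against 3795 nt over all genes. With the median of its length class subtracted from each gene, the ribosomal median was -0.16, the oxidative phosphorylation median -0.049, the T cell median -0.36, the B cell median 0.27 and the nonclassical monocyte median 0.54. The part of length in the remaining differences was not tested.

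**Figure D5:**
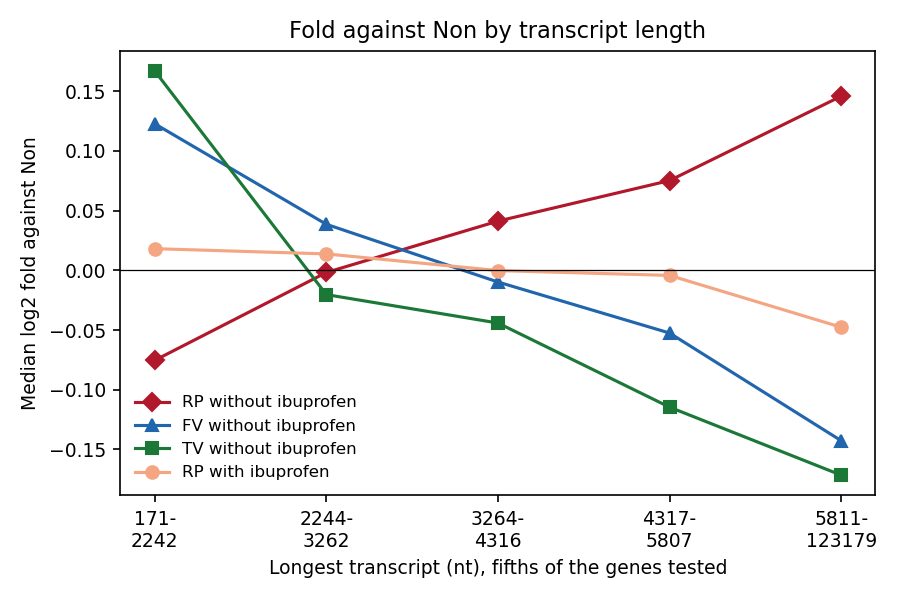
Median difference from Non (log2, vertical axis) in 5 groups of equal size of the genes compared, by length of the longest transcript (nt, horizontal axis), for 4 libraries that share Non. RP without ibuprofen increases from -0.08 to 0.15 with length, while FV decreases from 0.12 to -0.14 and TV from 0.17 to -0.17.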

How the data were processed

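Poly(A) RNA of peripheral blood mononuclear cells was sequenced in 7 libraries, 1 per group, from stranded mRNA libraries per the labels' protocols. HISAT2 2.1.0, Trimmomatic 0.38 and the build mm10 are named, with no role, per the submitters' processing notes. For the counting program, annotation release and strand setting, details were not given in the sources used here. A table deposited by the authors gives whole read counts per gene, not normalized, per the file headers. It also gives FPKM values, which the authors scaled by transcript length and depth and which were not used, and TPM values deposited by the authors, used as an alternative scale. TPM was compared as log2 (TPM + 1), which shrinks differences at low TPM.

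Counts were scaled with TMM over the 7 libraries (edgeR 4.0.16, R 4.3.3), turned into log2 CPM with a prior count of 2 and compared where the mean of the pair was at least 10 CPM. With 1 library a side no test was run. Intervals of differences are exact binomial 95% intervals for counting error only. The code was tested on simulated data. Of 45777 genes, 45679 matched a RefSeq GRCm38.p6 table, the assembly of mm10, which gave coordinates. Transcript lengths came from GENCODE by symbol, for 98.9% of the genes compared.

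The members and the 37 gene lists (940 entries, 2 not found) were chosen with earlier results of these data known. Named were all genes past 2-fold, up to 10 per direction of at least 100 CPM between 1.5-fold and 2-fold, 5 per direction of 2 to 10 CPM past 2-fold, the 4 most abundant members and those past 1.5-fold of each list, Ptgs1, Ptgs2 and Saa3; the text gives a selection of the list members and says where a gene falls outside the rule. Alternatives were DESeq2 1.42.0 size factors, library totals, TMM from the 2 libraries, erythroid genes left out, TPM, other prior counts and other filters. The removal of transcript length and the sums over overlapping genes and copies were added after seeing the data. Some items are not reported here.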

Additional observations from a re-analysis of the deposited data

Results flagged for a closer look

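Lists with at least 5 members of at least 10 CPM and named genes past 2-fold were examined. For 6 of these lists and 5 of these genes, the difference from Non in RP without ibuprofen had the opposite sign to that in both FV and TV without ibuprofen. All share the Non library, each group has 1 library, and the difference between routes was not tested. The median log2 difference of the classical monocyte list was -0.12 in RP, 1.41 in FV and 0.99 in TV. Its RP value was 0.014 with library totals and 0.091 on TPM, the same sign as in FV and TV. For B cell genes the median was 0.25, -1.29 and -0.63, and for MHC class II genes 0.11, -0.60 and -0.09. Oxidative phosphorylation genes had -0.14, 0.31 and 0.22, and their RP value was 0.044 on TPM. Heat shock and unfolded protein genes had -0.018, 0.35 and 0.20, and hypoxia and glycolysis genes -0.052, 0.56 and 0.34; these RP medians lie near 0. With library totals they were 0.11 and 0.079, and on TPM 0.18 and 0.15, the same sign as in FV and TV. Adamdec1 stood at 2.30 in RP, -0.90 in FV and -3.06 in TV. Evi2b stood at 1.62, -4.21 and -3.60, and its reads may be shared with Evi2. Il9r stood at 1.33, -1.18 and -1.69. Cd93 stood at -1.01, 2.56 and 2.04, and Klra2 at -1.19, 0.92 and 1.43.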

How the results depend on the processing

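No paired analysis was possible because each group has 1 library and the labels give no replicate number; for the same reason no replicate could be left out. Genes 2-fold higher and lower numbered 13 and 12. With library totals 20 were higher, among 6564 genes. With erythroid genes left out there were 27 and 32, among 8965 genes, as CPM then increases. A minimum of 1 CPM gave 78 and 86, a minimum of 50 CPM gave 1 and 2, and no filter gave 1703 and 1110. The median of all genes was 0.04, but 0.17 with library totals and 0.19 on TPM, which shifts list medians. With library totals they were 0.38 for B cell, 0.68 for nonclassical monocyte, 0.50 for platelet, 0.33 for neutrophil, -0.21 for T cell, -0.12 for erythroid and -0.12 for ribosomal protein genes. On TPM they were 0.40, 0.72 and 0.52 for the first 3, -0.15 for T cell, -0.035 for erythroid and -0.038 for ribosomal protein genes. Neutrophil genes had 0.26 with erythroid genes left out, and T cell genes -0.26 at 50 CPM. With length removed, classical monocyte genes had -0.029, erythroid -0.19 and ribosomal -0.16. Signs reversed for classical monocyte (0.014 with library totals, 0.091 on TPM), natural killer (0.020) and young reticulocyte genes (0.040), both with library totals, and oxidative phosphorylation (0.044 on TPM). Medians nearer 0 also changed sign: heat shock (0.11 with library totals, 0.18 on TPM), hypoxia (0.079, 0.15), plasma cell (0.065, 0.11, and 0.0048 with erythroid genes left out), cell cycle (0.050 with library totals), prostaglandin (-0.014 with no filter) and acute phase (-0.030 with length removed). Compared as log2 (TPM + 1), Aak1, Il9r, Cd93, Klra2, Pdk1 and Adgrl1 were under 2-fold (0.78, 0.90, -0.61, -0.72, -0.74, -0.73), as was Cd93 with library totals (-0.88). The added 1 shrinks differences at low TPM, and the TPM values of Aak1 and Il9r were themselves more than 2-fold apart. For Cd93, Klra2, Pdk1 and Adgrl1, the higher median on TPM also moves the difference toward 0. Summed with Evi2 and Nf1, Evi2b was at 0.16; with Copg2, Mest was at 0.93. The cause was not tested. Of 300 recomputed list medians, 15 changed sign, in 10 of 29 lists. Having 1 library a side leaves variation between animals unmeasured at any depth.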

Other observations

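Chemokine receptors and adhesion molecules, which guide leukocytes out of the blood, had a median of 0.22 in RP, with 14 of 21 passing members above 0, near the 58.7% of all genes. The median was 0.14 over the 27 genes of at least 1 CPM and 0.071 with no filter. The integrin chains Itga4, Itgax, Itgal and Itgam stood higher (0.76, 0.77, 0.31 and 0.39), while Ccr2, the chemokine receptor of classical monocytes, stood at 135 CPM in RP and 191 in Non (-0.50). Toll-like receptor genes had a median of 0.17, with 13 of 15 passing members above 0 and Tlr7, a sensor of RNA, at 49.3 CPM in RP and 35.3 in Non. Itgam and Tlr7 were picked out after their values were seen.

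Iron handling genes had a median of 0.06 over 14 passing members. Trf, transferrin, stood at 143 CPM in RP and 95.1 in Non, and Ncoa4, the receptor for ferritin turnover, at 196 and 263. Hypoxia and glycolysis genes had a median of -0.05 over 21, with 6 above 0 and 15 below. Their largest positive difference was in Slc2a3, a glucose transporter, at 119 CPM in RP and 91.2 in Non (0.38). The largest negative difference was in Pdk1, described above (-1.24). Trf, Ncoa4 and Slc2a3 were picked out after their values were seen, and the hypoxia median was 0.08 with library totals and 0.15 on TPM.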
